A study of Mus musculus with 4 samples.

Results

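The cells described here are the coronary endothelium of the mouse heart at embryonic day 12 (E12) and at E15, 1201 cells of the 21920 barcodes kept in 4 single-cell RNA libraries. A barcode is the tag of 1 droplet, and a UMI (unique molecular identifier) stands for 1 captured transcript. Members were chosen by their UMIs of 11 genes. A cell had to hold at least 2 UMIs of Fabp4, Cldn5, Aplnr and Gpihbp1 together, fewer of Npr3, Tmem108, Cpe and Gsta4 together, and at least 1 of Pecam1, Cdh5 and Egfl7 together. The first set marks coronary endothelium, the second the endocardium that lines the heart chambers, and the third any endothelial cell. At E12, where the file also held empty droplets, barcodes under a set minimum of UMIs were left out. The rule found 112 cells of 5732 barcodes at E12 and 1089 of 6062 at E15. Since these genes chose the cells, their own levels are a description and not a result.

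Both libraries came from C57Bl6J hearts, 37 pooled animals at E12 and 48 at E15, and no treatment or engineered allele is given for either. CD31+/CD45- cells, that is endothelial cells without blood leukocytes, were sorted in several rounds, frozen and then pooled into 1 library for each stage. The study asked how coronary vessels sprout and become arteries, and libraries of postnatal day 2 (P2) and of adults of 8 weeks were also made. With 1 library a stage, a difference between stages and a difference between libraries cannot be told apart. No test between stages was possible, and every interval below is a 95% interval for counting error only, which holds nothing of the variation between animals. Digestion of the tissue was longer at E15 than at E12.

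Coronary vessels grow into the heart wall from the sinus venosus and from the endocardium while the muscle thickens. New sprouts first form an immature plexus of capillaries with venous traits, and parts of it later take on arterial identity under VEGF and Notch signalling. Capillaries of the working heart are specialised to hand fatty acids to cardiomyocytes. Gpihbp1 holds lipoprotein lipase on the capillary wall, Cd36 takes up the released fatty acids, and Fabp4 and Fabp5 carry them through the cell.

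The members were deeper at E12, with a median of 2067 UMIs and 970.5 genes per cell, than at E15, with 1217 UMIs and 660 genes. Their UMIs summed to 243599 at E12 and 1498885 at E15, so the precision of every ratio is set by the E12 side. Levels are given as CPM, counts of a gene scaled to the UMI total of the group. A gene counted as tested when the mean of its levels at E12 and E15 was at least 50 CPM, which 2538 genes reached. A gene can thus pass only through the stage where it is high. Counts of called members are in part set by this filter. Hemoglobin and other genes of free RNA, which leaks from broken cells into all droplets, were set aside first. If all hemoglobin in the cells was free RNA, such RNA made 10.8% of the E12 coronary UMIs. This comes from hemoglobin shares of 0.0603% in coronary cells and 0.560% in droplets with at most 100 UMIs. It rests mainly on Hbb-y, with 103 of the 147 E12 hemoglobin UMIs. The estimate is too high for other genes. By it, free RNA alone would give 36.8 times the 1 Sftpc UMI seen and 6.69 times the 4 of Hba-a2. Genes may thus have been set aside that were not mostly free RNA. At E15 hemoglobin made 0.160% of the coronary UMIs, where 1 cell held 2035 of the 2394 hemoglobin UMIs. The 2 libraries shared 52 barcodes, of which 1 was coronary in both.

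As a measure of the same stages in another endothelium, endocardial cells were taken with the 2 sets of class genes exchanged. This gave 679 cells at E12 (median 1367 UMIs) and 1327 at E15 (median 1122 UMIs). Coronary cells made 14.2% of both classes together at E12 (95% exact binomial interval 11.8 to 16.8%) and 45.1% at E15 (43.1 to 47.1%). With every barcode thinned to 500 UMIs the shares were 12.3% and 60.7%, from 17 and 547 coronary cells. The share rests on the rule genes, of which Fabp4 was far more abundant at E15. With Fabp4 left out of the sum, an alternative chosen after seeing the data, the shares were 8.97% (7.02 to 11.3%) and 25.3% (23.4 to 27.4%).

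How the rule met the cells differed between the stages. At E12, 66 of the 112 members held just the 2 coronary UMIs required and 136 further cells fell short with 1, whereas at E15 117 of 1089 held 2 and 181 had 1. The median member held 2 coronary UMIs at E12 and 7 at E15. Fabp4 had at least 1 UMI in 55.4% of the E12 members and in 94.9% at E15, while Cldn5, a tight junction claudin, had one in 61.6% and 41.8%. Aplnr, the apelin receptor of venous-derived sprouts, was seen in 33.0% at E12 and 15.1% at E15. Gpihbp1 went the other way, from 8.93% to 44.1%. Without Fabp4 in the sum, 67 of the E12 members and 463 of the E15 members would still have qualified.

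Fabp4 had a part in choosing the cells, so its UMIs per cell are given as a description of the members. At E12 50 of 112 cells had no Fabp4 UMI and no cell had more than 10. At E15 56 of 1089 had none and 231, or 21.2%, had more than 10, although the E12 cells were the deeper ones.

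**Figure D1:**
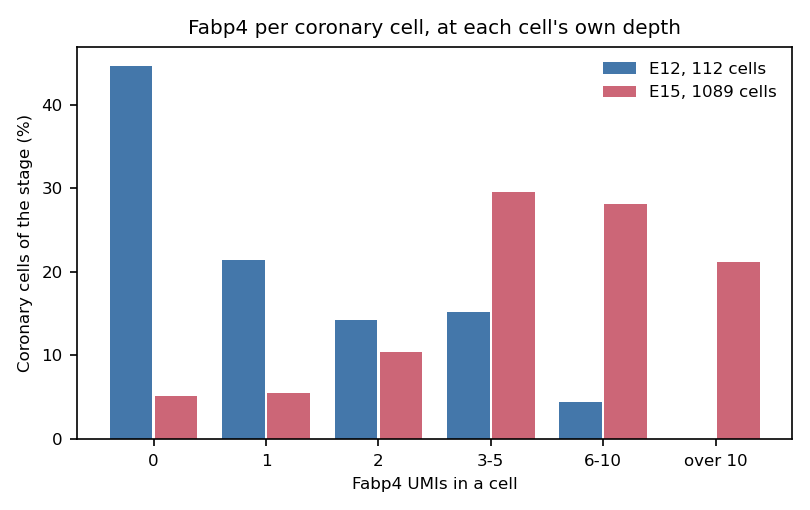
Share of coronary cells (y axis, percent of the stage) by the number of Fabp4 UMIs in the cell (x axis), with E12 in blue and E15 in red. The E12 cells pile up at 0 and 1 UMI, with 44.6% at 0, while 29.6% of the E15 cells hold 3 to 5 UMIs and 21.2% more than 10.

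Markers that played no part in the rule bore the label out in part. Cd36 had a UMI in 7.14% of E12 and 36.5% of E15 coronary cells, against 0.884% and 3.47% of endocardial cells. Kcne3, a potassium channel subunit found in angiogenic endothelium, had one in 25.9% and 9.64% of coronary cells and in 0.147% and 0.528% of endocardial cells. Apln, the apelin ligand of sprouting cells, had one in 7.14% and 7.81%, against 0.147% and 0.226%. The gap junction gene Gja4 did not mark coronary cells at E12, where it had a UMI in 9.82% of them and in 17.1% of endocardial cells. Car4, a carbonic anhydrase of mature capillaries, had a UMI in 0 of 112 E12 cells, which by the floor of 3 counts allows up to 2.68% of cells with a UMI, and in 4 of 1089 E15 cells. The rule also took in cells with elastic artery genes. A UMI of Eln, Fbln5 or Gkn3 was in 28 of the 112 E12 members, and in 42.0% of those without Fabp4 against 11.3% of those with it.

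Of the 2538 tested genes, 115 were at least 2-fold higher at E15 (4.53%) and 66 at least 2-fold lower (2.6%). Among the 115 are the rule genes Fabp4, Gpihbp1 and Pecam1, which helped to choose the cells. The counting interval left out equality for 112 of the 115 and for all 66. At this level filter a 2-fold ratio mostly does so, and the interval leaves out the spread between cells. It therefore adds no support to the calls. Over all tested genes the median log2 ratio was -0.02, and 5% and 95% of the genes lay at -0.80 and 0.97. In endocardial cells the same genes gave 54 higher (2.13%) and 24 lower (0.946%). The counts of the 2 classes are not alike. The E12 endocardial cells held 1036952 UMIs against 243599 in the coronary ones, and the genes were filtered on coronary levels. How far this sets the difference in counts and the overlap was not tested. Higher in both classes were 26 genes, 22.6% of the coronary and 48.1% of the endocardial ones. Lower in both were 9, 13.6% and 37.5%.

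**Figure D2:**
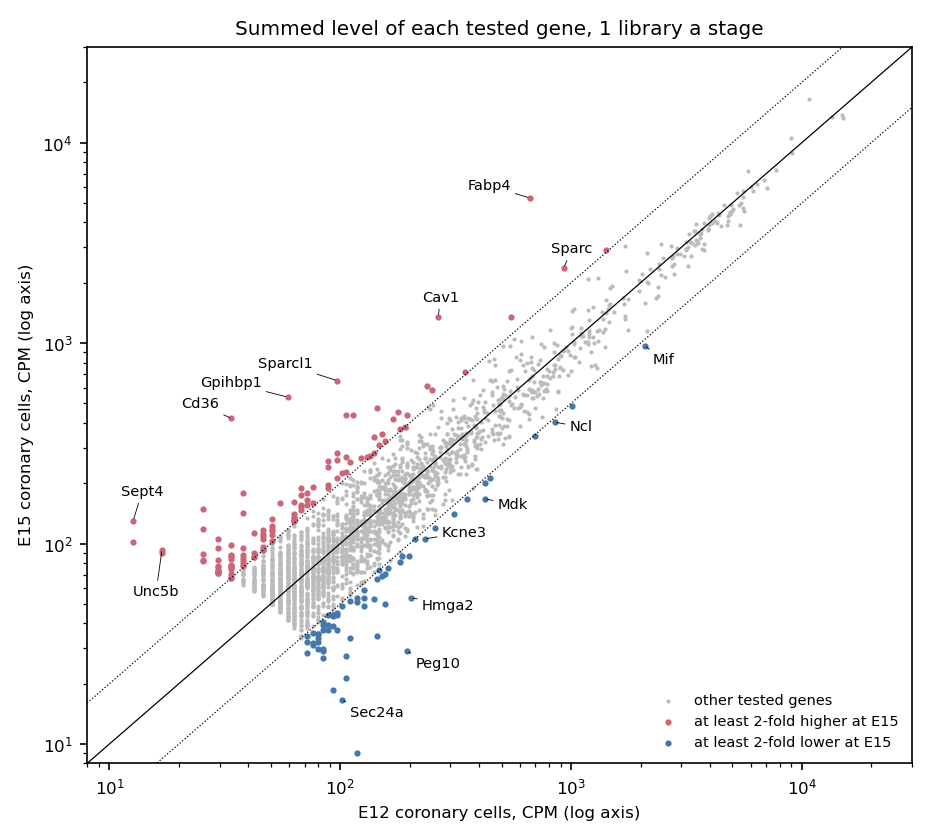
Level of each of the 2538 tested genes in E12 (x axis) and E15 (y axis) coronary cells, in CPM on log axes, with equality as a solid and 2-fold as dotted lines. Among the labelled genes Cd36, Gpihbp1, Fabp4, Sparcl1, Unc5b and Cav1 lie well above the upper dotted line and Peg10, Sec24a and Hmga2 well below the lower one. Gpihbp1 and Fabp4 are rule genes, shown as a description. Sept4, with 0 UMIs at E12, is drawn at the level of 3 counts.

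Cd36, the fatty acid transporter, had the highest ratio among tested genes with UMIs at both stages. It had 8 UMIs at E12 and 610 at E15, or 33.8 and 421 CPM, a ratio of 12.5 (interval 6.28 to 29.0). Cd36 thus passed the level filter only through its E15 level. It lies on the minus strand of chromosome 5 at 17781690 to 17888801 (GRCm38). Of the rule genes, given as a description, Gpihbp1 (chromosome 15, 75596628 to 75599481) went from 59.1 to 538 CPM and Fabp4 (chromosome 3, 10204088 to 10208576) from 663 to 5293 CPM. Fabp5 was already abundant at E12, with 1410 CPM, and stood at 2901 CPM at E15, a ratio of 2.06 (1.84 to 2.31). Tcf15, which with Meox2 drives Cd36 in heart endothelium, had a ratio of 2.17 (1.49 to 3.29) from 122 to 266 CPM. Meox2 itself had 0 UMIs at E12, where 3 counts are 12.7 CPM, and 70 UMIs or 48.3 CPM at E15. In the list of fatty acid uptake and its regulators 3 of the 4 tested members were higher and none lower, with a median log2 ratio of 1.08, beside 4.53% higher, 2.6% lower and a median of -0.02 over all tested genes. The median of the same members in endocardial cells was 1.32, and Fabp5 and Tcf15 had endocardial ratios of 2.26 and 2.77. Cd36 was more frequent at E15 in endocardial cells too, with a UMI in 0.884% at E12 and 3.47% at E15 at own depth.

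Of the mature capillary list 2 of 7 tested members were higher and none lower, beside 4.53% and 2.6% of all tested genes. Rgcc, a regulator of the cell cycle that is typical of heart capillaries, had a ratio of 4.68 (2.43 to 10.4) on 9 and 258 UMIs. The water channel Aqp1 had 3.76 (1.94 to 8.33), against 1.38 in endocardial cells. These were the 2 called, and both passed the level filter only through their E15 level. Kdr and Flt1, VEGF receptors of that list, had 1.37 and 1.16. Of 20 list members 7 had no UMI at E12 (Car4, Timp4, Aqp7, Cd300lg, Slc28a2, Cd74 and Cxcl9), whereas at E15, where far more UMIs were read, each of the 20 had at least 1.

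Caveolae are flask-shaped pits that endothelial cells carry in great number. Of 7 tested members of the caveolae list 5 were at least 2-fold higher and none was 2-fold lower, beside 4.53% and 2.6% of all tested genes. Cav1, the coat protein that shapes the pit, went from 266 to 1357 CPM, a ratio of 5.10 (3.97 to 6.66), and its partner Cav2 from 97.1 to 281 CPM (2.90, 1.90 to 4.62). The cavins, which stabilise the coat, followed. Sdpr (Cavin2) had a ratio of 3.86 (2.63 to 5.90) and Ptrf (Cavin1) of 2.02 (1.41 to 3.0), and Prkcdbp (Cavin3) stood just under 2-fold at 1.90. Ehd2, the ATPase at the caveolar neck, had 2.05. Plvap, which forms the diaphragm of caveolae and fenestrae and marks immature vessels, had 0.623 (0.404 to 0.990). The list had a median log2 ratio of 1.04 in coronary and of 0.81 in endocardial cells, where Cav1 reached 3.71 and Sdpr 1.62.

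The basement membrane is the matrix sheet under the endothelium. Of 14 tested members of its list 5 were at least 2-fold higher, 9 lay within 2-fold and none was 2-fold lower, beside 4.53% higher and 2.6% lower over all tested genes, with a median log2 ratio of 0.66 against 0.25 in endocardial cells. Sparc, a collagen-binding matrix glycoprotein, went from 929 to 2370 CPM (ratio 2.55, 2.23 to 2.94) and its relative Sparcl1 from 97.1 to 650 CPM (6.69, 4.43 to 10.6). The 2 chains of collagen IV were higher together, Col4a2 at 2.34 (1.80 to 3.10) and Col4a1 at 1.91 (1.58 to 2.32). Their genes lie head to head on chromosome 8, with starts 21 bases apart. In endocardial cells they had 1.07 and 1.21. The laminin chain Lama4 had 2.39 and nidogen Nid2 2.80, both on few E12 UMIs (11 and 7), whereas Col18a1 had 1.18 and Hspg2 1.52.

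Over all tested genes 4.53% were higher and 2.6% lower, which is the background of each list in this paragraph. Of 17 tested pan-endothelial genes 3 were higher and none lower. These were Icam2 at 2.57, the junctional adhesion molecule Esam at 2.24 and the TGF-beta co-receptor Eng at 2.07. The list had a median log2 ratio of 0.49 in coronary and of 0.54 in endocardial cells. Among the rule genes Pecam1 had 2.05 and Cdh5 1.74, while Egfl7 had 0.984 and Cldn5 0.896. Genes of the list of anticoagulant and adhesion proteins had a median log2 ratio of 1.29, with Plat at 3.21, Cd200 at 3.20, Icam2 and Cd9 at 2.32 among the 4 of 6 that were higher. In the MHC class I and interferon list 3 of 5 were higher, Ifitm3 at 4.15 (2.79 to 6.47), Bst2 at 2.16 and H2-D1 at 2.1, and in endocardial cells these had 2.41, 1.95 and 2.61. S100a11, Tmem88 and Ptp4a3, outside these lists, had 2.44, 2.90 and 2.55.

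**Figure D3:**
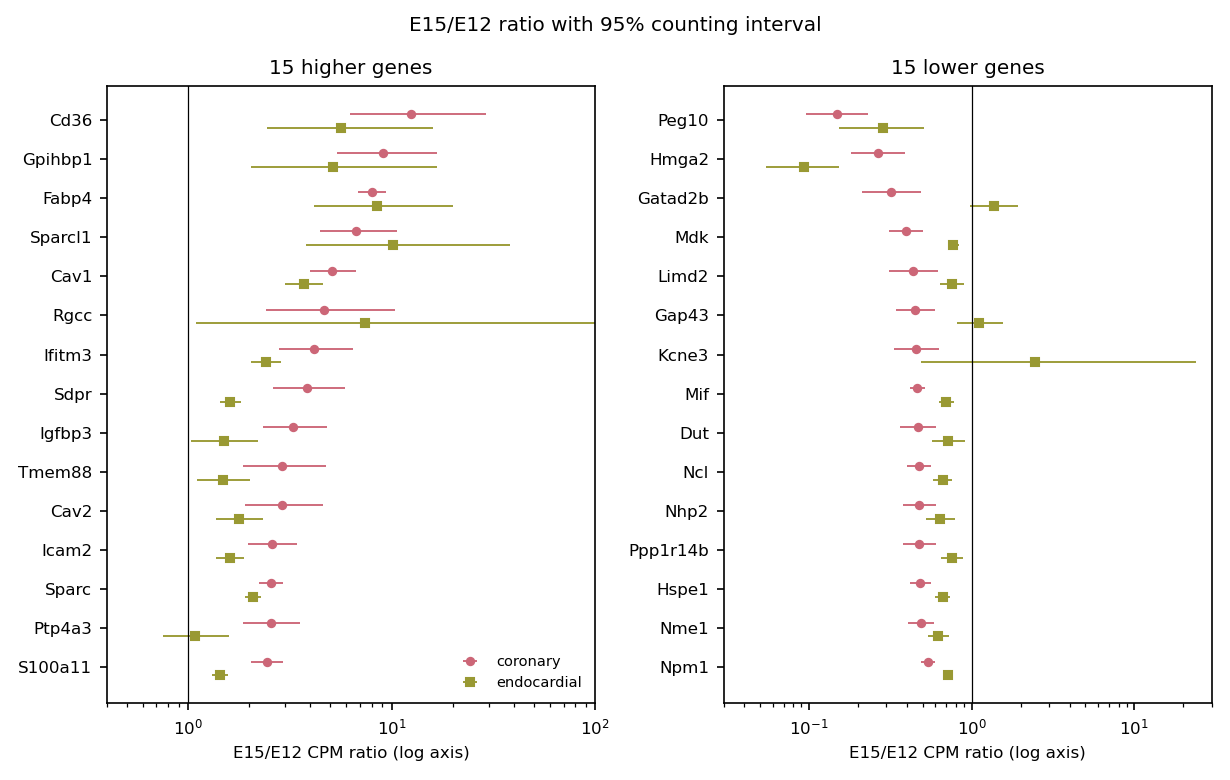
E15/E12 CPM ratio (x axis, log) of the 15 genes with the highest lower bound and the 15 with the lowest upper bound, with 95% counting intervals, in coronary (red circles) and endocardial cells (olive squares). Most genes lie on the same side of 1 in both classes, with Sdpr at 3.86 against 1.62, while Kcne3, Gap43 and Gatad2b are below 1 in coronary cells and above it in endocardial cells. The interval of Rgcc in endocardial cells runs past the right edge, to 316. Rule genes were not left out of this ranking.

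The 4 stretches before gene starts that follow show a gene pair that was higher, Cd36 and Sdpr, and a pair that was lower, Hmga2 and Ncl, each read 5′ to 3′ on the strand of its gene from RefSeq on GRCm38.p6 and free of annotated exons. Capitals mark GGAA, the core of ETS factors, and CACCC, the core of KLF factors, on either strand (TTCC and GGGTG are the other strand). None of the 4 held ACGTG, the core of the hypoxia response, or the E2F forms TTTCGCGC and TTTGGCGC. The positions are chr5:17835897-17836146 on the minus strand for Cd36, chr1:51288876-51289125 on the plus strand for Sdpr, chr10:120476470-120476719 on the minus strand for Hmga2 and chr1:86359456-86359573 on the minus strand for Ncl. The Cd36 stretch lies before a RefSeq start at 17835896. That start is inside the gene span given above, whose far end on the minus strand is 17888801.
Cd36: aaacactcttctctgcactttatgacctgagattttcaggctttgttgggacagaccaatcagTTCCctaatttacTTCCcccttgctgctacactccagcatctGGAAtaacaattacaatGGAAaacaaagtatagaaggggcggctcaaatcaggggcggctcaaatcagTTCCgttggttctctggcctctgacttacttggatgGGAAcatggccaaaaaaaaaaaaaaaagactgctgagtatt
Sdpr: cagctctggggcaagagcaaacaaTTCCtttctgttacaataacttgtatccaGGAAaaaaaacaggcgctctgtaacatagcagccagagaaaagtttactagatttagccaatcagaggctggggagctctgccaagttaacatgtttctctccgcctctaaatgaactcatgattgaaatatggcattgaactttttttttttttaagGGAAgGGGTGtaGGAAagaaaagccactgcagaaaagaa
Hmga2: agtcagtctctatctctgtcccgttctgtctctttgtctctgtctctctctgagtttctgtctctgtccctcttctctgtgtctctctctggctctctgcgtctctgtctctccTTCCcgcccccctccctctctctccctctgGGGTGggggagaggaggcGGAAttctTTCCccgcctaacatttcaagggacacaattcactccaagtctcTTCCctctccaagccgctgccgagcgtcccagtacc
Ncl: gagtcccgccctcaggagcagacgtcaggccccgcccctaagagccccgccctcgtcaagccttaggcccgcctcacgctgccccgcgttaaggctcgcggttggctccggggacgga
The Cd36 stretch held 6 GGAA cores and Sdpr and Hmga2 4 each, while the Ncl stretch, shorter than the others at 118 bases because exons were left out, held neither motif. Counted over whole windows of 250 bases, exons included, a GGAA core is in 93.7% of the 2579 windows before the starts of 2037 tested genes, a CACCC core in 55.7%, ACGTG in 22.8% and an E2F form in 1.24%. In 68 windows of 53 of the 66 lower genes the shares were 89.7%, 51.5%, 16.2% and 1.47%. For the higher genes this check is void, since 84 of the 115 had an entry, under the 80% required, which the lower genes passed.

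Of 14 tested members of the angiogenic capillary and tip cell list 8 were higher at E15 and 1, Kcne3, lower, beside 4.53% and 2.6% of all tested genes. Several of these ratios rest on few E12 UMIs, and Unc5b passed the level filter only through its E15 level. Unc5b, a netrin receptor of tip cells and arteries, had 4 UMIs at E12 and 135 at E15, a ratio of 5.51 (2.1 to 20.5), and in endocardial cells 1.06. Igfbp3, a binding protein of insulin-like growth factors, went from 144 to 473 CPM (3.29, 2.33 to 4.8) against 1.50. Below the level filter, Dll4, the Notch ligand of tip cells, had 3.18 (1.20 to 12) and Pdgfb, which recruits pericytes, 2.78 (1.14 to 8.77). Cxcr4, the receptor of the arterial chemokine Cxcl12, had 4 UMIs in a single E12 cell and 81 UMIs in 65 E15 cells. Apln had 1.68 (0.903 to 3.46), and the tip cell proteoglycan Esm1 had 0.327 on 9 and 18 UMIs. In the arterial list 3 of 10 were higher, 1 lower and 6 within 2-fold, beside the same 4.53% and 2.6%. The called ones were Unc5b, 8430408G22Rik (Depp1) at 5.88 (2.66 to 16.2) and Efnb2, the arterial ephrin, at 2.04 (1.13 to 4.04). Like Unc5b, 8430408G22Rik passed the level filter only through its E15 level. Gja4 stood at 1.97 and Sox17, an arterial transcription factor, at 1.97 (1.07 to 4.05). Over the alternatives Gja4 ranged from 0.451 when thinned to 500 UMIs to 5.05 without cells that held an elastic artery gene. In endocardial cells Efnb2 and Gja4 had 0.879 and 0.691, while Sox17 was rare there. The ratio of ratios was 2.32 (1.20 to 4.47) for Efnb2 and 2.85 (1.58 to 5.14) for Gja4. Where every barcode was thinned to 500 UMIs before the rule was applied, 17 E12 cells remained. The median log2 ratio of the tip cell list was then -0.51, with genes at 0 placed at the floor of 3 counts. Over all tested genes the median in that setting was -1.02. With all members the list median was 1.13 in coronary and 0.68 in endocardial cells.

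Of 7 tested Notch pathway genes 1 was higher and 1 lower, with a median log2 ratio of 0.29. Of 6 tested flow genes 1 was higher and none lower, with a median of 0.40 in coronary and in endocardial cells. Over all tested genes 4.53% were higher and 2.6% lower. Nrarp, a Notch target and feedback inhibitor, had 2.18 (1.21 to 4.30), Notch1 1.32 and Hes1 1.22, while the ligand Jag1 had 0.499 (0.338 to 0.754). Jag1 sat in few cells at E12, with 35 UMIs in 14 cells. Without the cells that held an elastic artery gene its ratio was 1.65, above 1 and so in the other direction. Nos3, the endothelial nitric oxide synthase, had 2.23, and Klf2, a transcription factor induced by flow, 1.71 (1.19 to 2.55) in coronary and 1.74 in endocardial cells. The coronary ratio of Klf2 ranged from 0.269 when thinned to 500 UMIs to 3.82 without the elastic artery cells.

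Of 7 tested venous genes none was higher and 2 were lower, beside 4.53% and 2.6% of all tested genes, with a median log2 ratio of -0.40 against 0.39 for the same genes in endocardial cells. Nr2f2 (COUP-TFII), the transcription factor that keeps venous identity, went from 186 to 86.2 CPM, a ratio of 0.464 (0.327 to 0.670). In endocardial cells it had 1.14, and the ratio of ratios was 0.409 (0.276 to 0.605). Flt4, the VEGF-C receptor, had 0.441 and its co-receptor Nrp2 0.606 (0.421 to 0.891), whereas Emcn, a sialomucin of veins and capillaries, had 1.54. Aplnr, a rule gene, had 0.679.

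**Figure D4:**
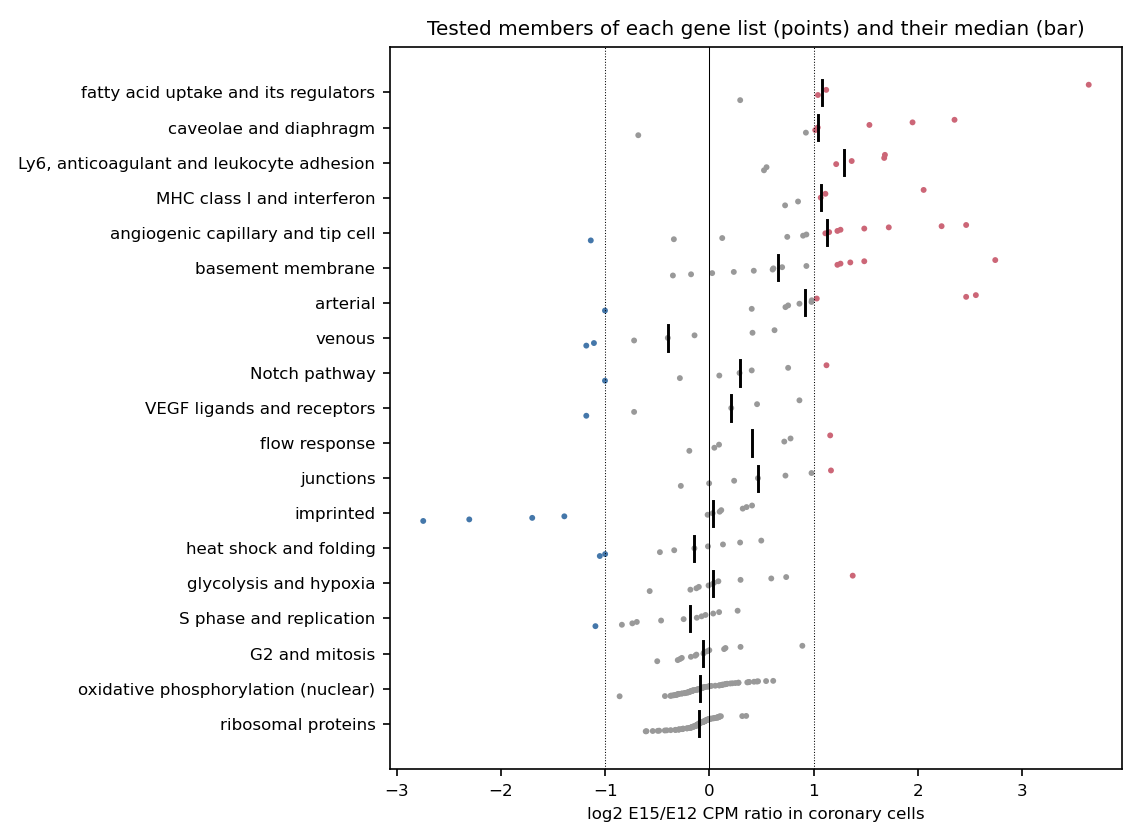
Log2 E15/E12 ratio (x axis) of the tested members (points) of 19 gene lists and the median of each list (black bar), with dotted lines at 2-fold and red and blue points beyond them. Lists of fatty acid uptake, caveolae, adhesion, MHC and tip cell genes have medians above 1, the venous list lies at -0.40, and ribosomal and oxidative phosphorylation genes stay close to 0.

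Some of the lower genes are known from embryonic and growing tissue. Peg10, an imprinted gene derived from a retrotransposon, went from 194 to 29.0 CPM, 6.71-fold lower (4.32 to 10.4), and in endocardial cells it was lower too (ratio 0.284). Hmga2, a chromatin protein of embryonic cells, went from 203 to 53.8 CPM, 3.77-fold lower (2.57 to 5.47), and its endocardial ratio was lower still at 0.0936. Among 11 tested imprinted genes 4 were lower and none higher, beside 2.6% and 4.53% of all tested genes. The lower ones were Peg10, Nnat at 0.202, Asb4 at 0.308 and Peg3 at 0.381. The most abundant imprinted genes did not follow, with H19 at 1.28, Mest at 1.33, Igf2 at 1.25 and Gnas at 1.08. Igfbp2 had 0.351 (0.202 to 0.630), while Igfbp4 had 1.14.

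Kcne3 (chromosome 7, 100176502 to 100184869) had 232 CPM at E12 and 105 CPM at E15, a ratio of 0.454 (0.332 to 0.630), and was nearly absent from endocardial cells with 2 and 8 UMIs. Gap43, a growth cone protein, had 0.448 (0.342 to 0.593) against 1.12 in endocardial cells. Mdk, the growth factor midkine, went from 422 to 168 CPM (0.397, 0.313 to 0.506) against 0.773, and Mif, a cytokine, from 2086 to 971 CPM (0.465, 0.420 to 0.517) against 0.698. Limd2 and Ppp1r14b had 0.438 and 0.477. Gatad2b, with 0.318, rested on a single E12 cell that held 22 of its 37 UMIs, and without the highest cell of each stage its ratio was 0.762. The same held for Sec24a, with 19 of 24 UMIs in 1 cell and a ratio of 0.163 that became 0.751.

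Several abundant genes lay close to 2-fold lower. The nucleolar proteins Ncl and Npm1 had 0.474 (0.403 to 0.560) and 0.542 (0.491 to 0.60), and the snoRNP protein Nhp2 0.477. Hspe1 and Hspd1, the mitochondrial chaperonin pair, had 0.482 (0.416 to 0.561) and 0.50 (0.361 to 0.702). These were the 2 lower of 9 tested genes of heat shock and folding, beside 2.6% lower over all tested genes. The median log2 ratio of that list was -0.14, with Hspa8 at 1.09 and Hsp90ab1 at 0.719. Hspd1 and Hspe1 lie head to head on chromosome 1, with Hspd1 on the minus strand at 55077835 to 55088243 and Hspe1 on the plus strand at 55088132 to 55091307. Nme1, a nucleoside diphosphate kinase, had 0.489 and Dut, which keeps uracil out of DNA, 0.468. Each of these 7 was lower in endocardial cells as well, with ratios from 0.602 for Hspd1 to 0.720 for Dut. The ratio of ratios stayed below 1 for Ncl at 0.713 (0.579 to 0.878), while for Hspd1 its interval, 0.557 to 1.24, took in 1.

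Most housekeeping and cycle genes lay within 2-fold. None of 91 tested ribosomal protein genes and none of 71 nuclear genes of oxidative phosphorylation passed 2-fold, with medians of -0.10 and -0.09. Of 12 genes of glycolysis and hypoxia, Ankrd37 alone was higher at 2.59, beside 4.53% of all tested genes, and Gapdh had 1.06 and Ldha 0.917. None of 15 tested genes of G2 and mitosis was called in either direction, with a median of -0.06. Of 12 genes of S phase Dut alone was lower, beside 2.6% of all tested genes. Their median was -0.18, and the UMIs of all 30 list members together had a ratio of 0.778 (0.704 to 0.862). In endocardial cells the medians of the mitotic and S phase genes were -0.53 and -0.67. A UMI of Mki67, Top2a, Ccnb1, Ccnb2, Cdk1, Ube2c or Birc5 was in 58.9% of E12 and 40.1% of E15 coronary cells at their own depth. At 500 UMIs a cell the shares were 26.8% (18.9 to 36.0%) and 26.3% (23.6 to 29.1%).

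Equal depth changed how several shares read. Each cell was thinned at random to 500 UMIs, which left out 0 and 46 shallower coronary cells at E12 and E15. Cav1 had a UMI in 17.0% of E12 and 47.9% of E15 cells, Sparcl1 in 8.04% and 28.2%, Cd36 in 1.79% and 18.1% and Igfbp3 in 4.46% and 16.2%. In endocardial cells Cav1 stood at 4.75% and 17.6%, Sparcl1 at 0% and 1.71%, Cd36 at 0.445% and 1.4% and Igfbp3 at 1.63% and 2.41%. Any of the tip cell genes Cxcr4, Unc5b, Esm1, Dll4 and Igfbp3 was in 5.36% (1.99 to 11.3%) at E12 and 22.3% (19.8 to 25.0%) at E15. Igfbp3 was the most frequent of them. Unc5b, Dll4 and Cxcr4 were in 0 of 112 cells at E12 and in 5.75%, 2.88% and 2.97% at E15. The interval of 0 of 112 cells reaches 3.24%. It overlaps the E15 intervals of Dll4 (1.95 to 4.08%) and Cxcr4 (2.03 to 4.19%), but not that of Unc5b (4.42 to 7.34%). Esm1 went the other way, with 1.79% and 0.575% and overlapping intervals. In endocardial cells the shares with any of the tip cell genes were 4.60% and 4.20%. Any of the arterial genes Gja4, Gja5, Efnb2 and Cxcl12 was in 5.36% (1.99 to 11.3%) and 12.7% (10.7 to 14.8%) of coronary cells, with overlapping intervals. In endocardial cells the shares were 13.5% and 8.94%. Cxcl12 is counted here although it was set aside as free RNA for the ratios. It was in 0 of 112 E12 and 3.07% (2.11 to 4.30%) of E15 coronary cells, with overlapping intervals, and in 1.93% and 0.311% of endocardial cells. In the other direction, Nr2f2 was in 10.7% and 3.93%, Hmga2 in 10.7% and 2.78% and Peg10 in 10.7% and 1.44% of coronary cells. The intervals of Kcne3, 8.04% (3.74 to 14.7%) and 4.51% (3.33 to 5.95%), and of Aplnr overlapped between the stages. At their own depth 35.2% of E15 coronary cells held a tip cell gene, and among those with a UMI of an arterial gene 54.4% did, against 29.1% of the rest. At E12 these shares were 25.0% and 23.9%. At own depth a deeper cell is more likely to hold a UMI of both sets, and the pair was not counted at equal depth.

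**Figure D5:**
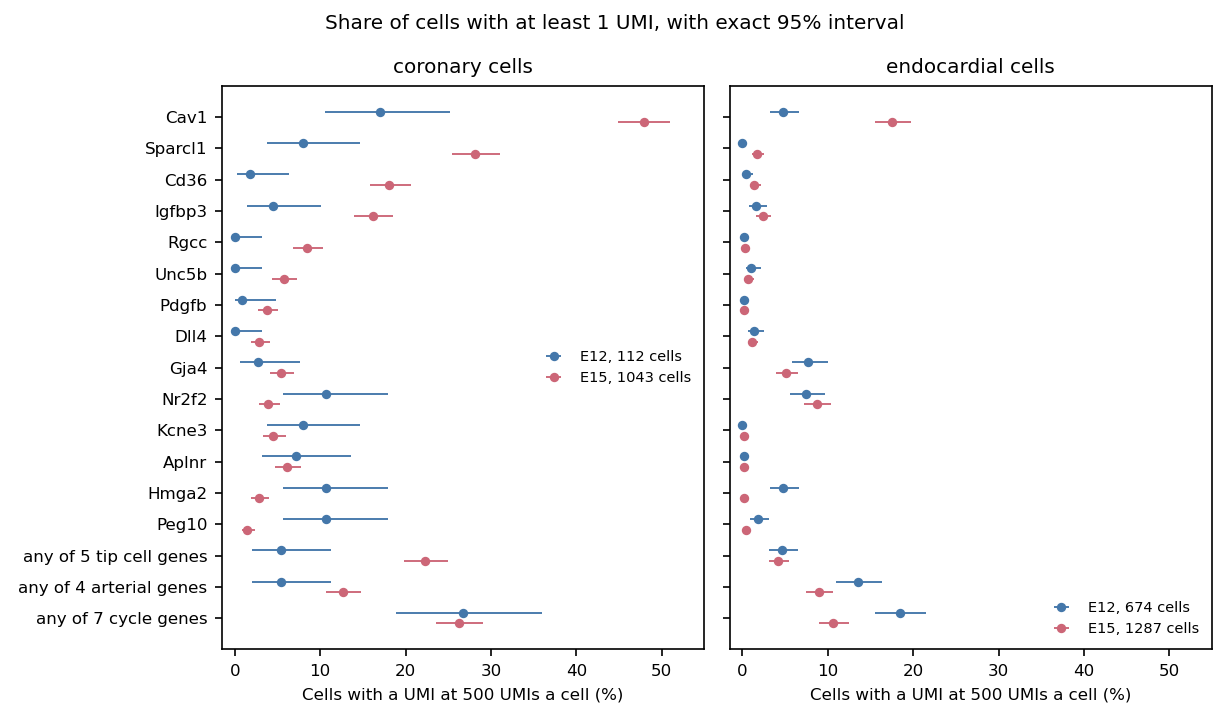
Share of cells with at least 1 UMI (x axis, percent) at 500 UMIs a cell in coronary (left) and endocardial cells (right), E12 in blue and E15 in red, with exact 95% intervals. In coronary cells Cav1 goes from 17.0 to 47.9% and Cd36 from 1.79 to 18.1%, whereas the share with any of 7 cycle genes lies at 26.8 and 26.3%.

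Some changes differed between the endothelial classes of the same hearts. Among tested genes the farthest apart upward, by the bound nearest 1, was Plat, the tissue plasminogen activator, with 3.21 in coronary and 0.628 in endocardial cells, a ratio of ratios of 5.11 (2.06 to 12.7). Col4a2 had 2.19 (1.62 to 2.95) and Sdpr 2.39 (1.60 to 3.57). Downward, the ratios of Timm10, Jag1 and Pdlim3 were 0.416, 0.499 and 0.533 in coronary cells and 1.57, 1.93 and 1.84 in endocardial cells. Lum, a matrix proteoglycan, had 0.438 against 1.43, but 1 cell held 11 of its 19 E12 UMIs and without the highest cells its coronary ratio was 0.939. Nts, the neuropeptide neurotensin, and the elastic fibre gene Eln were level in coronary cells at 0.984 and 1.08 and higher in endocardial cells at 3.61 and 2.58. Eln and Lum are also expressed by mesenchymal cells. Sept4, a septin, had 0 UMIs at E12 and 188 at E15 in coronary cells, which is at least 10.2-fold higher with 3 counts as the E12 floor. It was higher in endocardial cells too, with 9 and 44 UMIs and a ratio of 3.01 (1.45 to 7.01).

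The sexes of the pooled embryos and other cells differed between the libraries. Xist, the RNA of the inactive X chromosome of females, had a ratio of 1.77 (1.57 to 2.01) in coronary and 1.98 in endocardial cells. Cells with Xist and no Y-linked UMI were 51.8% of the coronary cells at E12 and 63.8% at E15, and cells with a Y-linked UMI 8.93% and 3.4%. Markers of other cell types were seen at both stages. A hemoglobin UMI was in 55 of the 112 E12 members and in 57 of the 1089 E15 members. The 18 fibroblast and cushion genes summed to 688 CPM at E12 and 622 CPM at E15, 22 cardiomyocyte genes to 101 and 113 CPM, 12 mural genes to 122 and 144 CPM, 10 epicardial genes to 50.7 and 94.5 CPM and 13 macrophage genes to 29.6 and 13.1 CPM. Myh6, Myh7, Actn2 and Nppa of cardiomyocytes, Myh11 of smooth muscle, Krt8 of epicardium and Ptprc (CD45) and C1qa of macrophages were at 0 at E12. Others were not, such as Tnni1 of cardiomyocytes with 17 UMIs at E12. At least 1 UMI was seen at E12 for 16 of the 18 fibroblast and cushion genes. Lymphatic genes summed to 211 and 114 CPM, with Prox1 at 3 and 23 UMIs and Lyve1 at 5 and 25. Without cells with 2 or more UMIs of fibroblast, mural, epicardial, macrophage or platelet genes, 81 E12 and 916 E15 cells were left. In these 165 genes were higher and 79 lower, among them 100 of the 115 and 54 of the 66 above. The part of lymphatic and cardiomyocyte genes was not tested. In cells with Xist and no Y-linked UMI 178 genes were higher and 75 lower, among them 87 of the 115 and 43 of the 66 above.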

How the data were processed

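CD31+/CD45- cells of pooled hearts were encapsulated with the 10x 3′ version 2 chemistry, and per the labels reads were turned into UMI counts per gene and barcode with Cell Ranger 2.2 on mm10. The deposited values are raw counts, not normalized. The E12 file held all 737280 barcodes and the other files cells already called by the authors. Doublets were not removed. UMIs were summed over members of each stage and divided by the total without set-aside genes, 236826 at E12 and 1450329 at E15. A gene was set aside where at least 50% of its E12 coronary UMIs could be free RNA, scaled from E12 barcodes of at most 100 UMIs by the hemoglobin share, which took out 523 genes, 7 of the 13 mitochondrially encoded ones among them. Ratios have exact conditional binomial intervals, shares exact binomial ones and ratios of ratios log-normal ones, at 95%. PCR duplicates were collapsed by UMI, and intervals and floors (3 counts, 12.7 CPM at E12 and 2.07 CPM at E15) cover counting error only.

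Tested genes had a mean of at least 50 CPM, and genes at least 2-fold apart were called. Named genes were the rule genes, the 15 with the highest lower bound and the 15 with the lowest upper bound at a mean of at least 100 CPM, called and most abundant members of 46 gene lists, genes the study names, and the 10 farthest from the endocardial ratio. Others, such as Meox2, Sox17, Plvap, Sept4, Prox1 and Lyve1, were chosen after their values were seen. The members and lists were chosen with earlier results of these data known. The ratios were tested on simulated counts. Python 3.11.15, numpy 2.4.6, scipy 1.17.1 and pandas 2.3.3 were used, with edgeR 4.0.16 in R 4.3.3 for the TMM scale (trimmed mean of M-values) alone. Alternatives were other scales and filters, other limits on cells and genes, thinning, and cells left out by Xist, cycle, artery or other cell type genes. The one without cells with a hemoglobin UMI was added after the data were seen, as were ratios without the highest cell and the coronary share without Fabp4. Promoter stretches came from RefSeq (GRCm38.p6) and gene positions from GENCODE M21 (GRCm38), and 2037 of the 2538 tested genes had a promoter entry.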

Additional observations from a re-analysis of the deposited data

Results flagged for a closer look

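Kcne3 and Nid2 were called in opposite directions in the 2 endothelial classes. Kcne3 had an E15/E12 ratio of 0.454 in coronary cells and of 2.46 in endocardial cells, the latter on 2 and 8 UMIs. Nid2 had 2.80 in coronary cells and 0.308 in endocardial cells, the latter on 4 and 2 UMIs. The difference was not tested, since each stage had 1 library.

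Outside the barcodes compared, 1 of the 1453 E12 barcodes with more than 100 UMIs but under the minimum met the gene rule. In the libraries that the comparison did not use, the rule found 4237 coronary cells at P2 (72.0% of the barcodes) and 3947 in the adult (93.0%).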

How the results depend on the processing

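Depth limited most results, since a gene at the level filter had about 11.8 UMIs at E12. No paired analysis was possible because each stage had 1 library. The counts of 115 higher and 66 lower genes became 320 and 276 with a filter of 20 CPM and 782 and 1772 with none. With at least 3 coronary UMIs 203 were higher, without Fabp4 in the sum 173, in cells with Xist and no Y-linked UMI 178, and without cells with a hemoglobin UMI, chosen after seeing the data, 208. Without cycling cells the counts were 281 and 154. With every barcode thinned to 500 UMIs 17 E12 cells remained, and 101 genes were higher and 1292 lower. The median log2 ratio of all tested genes was then -1.02, as genes at 0 were set to the floor of 3 counts. For a gene with 0 UMIs at E12, the thinned ratio is a lower bound. A bound below 1 does not show a lower level at E15. Of the main calls 17 of the 115 higher and 56 of the 66 lower genes were kept. That setting turned the list medians of tip cell genes to -0.51 and of adhesion genes to -0.054, and the ratios of Dut and Ppp1r14b to 1.45 each, Tcf15 to 0.646, Nos3 to 0.256, Aqp1 to 0.492, 8430408G22Rik to 0.553, Cd9 to 0.974, Ehd2 to 0.748, Unc5b to 0.369, Efnb2 to 0.799, Plat to 0.246, Ankrd37 to 0.318, Nid2 to 0.799, Rgcc to 0.502, Mcam to 0.482 and Cd200 to 0.953. Jag1 turned to 1.32 with at least 3 coronary UMIs, 1.65 without large artery cells and 1.35 without hemoglobin cells. Sec24a turned to 1.89, 1.16 and 1.95 with at least 3 coronary UMIs, without Fabp4 and in cells with Xist, and Gatad2b to 1.84 without hemoglobin cells. The cause was not tested. The coronary share at E15 was 60.7% when thinned and 57.3% with at least 3 UMIs of a class, and without Fabp4, chosen after seeing the data, the shares were 8.97% at E12 and 25.3% at E15. Thinned shares were 5.36% and 12.7% for arterial genes, with overlapping intervals, 5.36% and 22.3% for tip cell and 26.8% and 26.3% for cycle genes. Of the ratios of named genes over all alternatives, 2102 stayed within the counting interval of the ratio reported, 227 moved out of it and 23 changed direction. The changes in direction under thinning can include bounds of genes at 0 at E12.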

Other observations

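The coronary rule was also applied to the P2 and adult libraries, which stand outside the comparison, each as 1 library of already called cells. Of 40 named tested genes that were at least 2-fold higher at E15 than at E12, 27 stood higher again in both. The share over all tested genes is not given, so this count has no background and is a description only. The 40 include the rule genes Fabp4, Gpihbp1 and Pecam1, and the same rule chose the P2 and adult cells. The named genes were in part chosen for extreme E15/E12 ratios. Cd36 had 421 CPM at E15, 2003 CPM at P2 and 3788 CPM in the adult, and Gpihbp1, a rule gene, 538, 1459 and 2495 CPM. Sparcl1 had 650, 967 and 1444 CPM. Car4, with 0 UMIs at E12 and 4 at E15, had 246 CPM at P2 and 367 CPM in the adult. Cav1 had 1357, 2360 and 2019 CPM. Igfbp3 was highest at E15, with 473 CPM against 153 CPM at P2 and 97.0 CPM in the adult.

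Of 26 named tested genes that were at least 2-fold lower at E15, 19 stood lower again in both libraries, again without the share over all tested genes. Ncl did not at P2, with 403 CPM at E15 and 425 CPM at P2. Kcne3 had 105 CPM at E15, 18.6 CPM at P2 and 3.91 CPM in the adult, and Peg10 29.0, 7.07 and 0.313 CPM. Hmga2 had 53.8, 7.90 and 0.470 CPM, Mdk 168, 104 and 4.54 CPM, and Gap43 140, 91.3 and 2.66 CPM. Nr2f2 had 86.2, 75.7 and 31.0 CPM.

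Within the E15 coronary cells, a UMI of 1 of the 7 cycle genes was in 49.5% of the cells with a Cd36 UMI and in 34.7% of the others, and in 29.1% of the cells with an arterial gene against 43.6% of the others. At E12 the Cd36 pair went the other way, with a cycle gene in 4 of the 8 cells with a Cd36 UMI, below the 59.6% of the others. The arterial pair kept its direction at E12, with a cycle gene in 12 of the 24 cells with an arterial gene and in 61.4% of the others. These shares are at the cells' own depth, where a deeper cell is more likely to hold a UMI of both sets. At E12 the tip cell genes were in 44.8% of the cells with a Kcne3 UMI and in 16.9% of the others, and at E15 in 51.4% and 33.4%.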
